A study of Homo sapiens with 4 samples.

Results

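PMEPA1 and 9 other genes of the TGF-beta and BMP pathways were followed in A549 cells with and without raised USP12. Apart from SMAD3, which itself carries the signal, they are targets of SMAD proteins or parts of their feedback. The members were the rows of the count files named PMEPA1, SMAD3, SMAD6, SMAD7, SKIL, TGFBI, LTBP2, ID1, ID2 and ID3, which were 10 of 50868 genes, and all 10 passed the filter on low counts. These genes were chosen with fold changes from the same contrast already known, so their values are a description and no test is drawn from them.

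A549 is an established epithelial line from a human lung adenocarcinoma, and USP12 is a deubiquitinase, an enzyme that removes ubiquitin from other proteins. RNA was sequenced from 2 libraries labelled control and 2 labelled USP12-overexpressed, with no other treatment, time or dose given in the labels. The methods describe USP12 coding sequences with V5 or Flag tags in lentiviral pLVX vectors, but neither the tag used in these cells nor whether they were a pool or a clone. Nothing states that the replicates were separate cultures, so p-values measure only the spread between these libraries.

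Ligands of the TGF-beta family bind paired receptor kinases, which phosphorylate SMAD proteins. SMAD3 with SMAD2 carries the signal of TGF-beta and activin, and SMAD1, SMAD5 and SMAD9 that of BMPs, and each set joins SMAD4 and binds DNA. Many of the genes switched on in this way encode inhibitors of the pathway, among them SMAD6, SMAD7, SKIL and PMEPA1, while the ID genes are classical BMP targets. In lung carcinoma cells TGF-beta is best known for slowing growth and for loosening epithelial contacts.

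The libraries held between 14280081 and 16305356 counts, and a level of 3 counts corresponded to between 0.166 and 0.227 CPM (counts per 1000000 counts of the library, scaled by TMM factors). USP12 had 201 and 621 counts in controls, against 24235 and 32274 with USP12, which is the direction of the labels. Across 15222 tested genes the log2 ratio had an SD of 1.32 for the pair of controls and 0.62 for the pair with USP12. Control replicate 1 has a file heading whose date-like start differs from that of the other 3 libraries, so what that start marks and the culture itself cannot be told apart, and values against control replicate 2 alone are given beside the fold changes and list medians below that then differ in direction or by over 1.5 times. The 5 epithelial markers summed to 9623 and 5053 CPM in the control libraries and to 4270 and 3970 CPM with USP12. KRT8 and KRT18 made up most of that sum. CDH1 had overlapping groups, at 130 and 99.0 CPM in controls and 76.4 and 134 CPM with USP12. The 5 genes typical of A549 summed to between 10232 and 11780 CPM in all 4. Of 5 endothelial markers, VWF, KDR and CLDN5 were at or below 3 counts in every library, while the list summed to 15.4 and 8.58 CPM in controls and to 0.503 and 1.38 CPM with USP12. The haematopoietic list summed to 32.9 and 6.25 CPM in controls and to 13.4 and 12.2 CPM with USP12, with CD3E at 0. Most of it was CD14, at 32.0 and 4.70 CPM in controls and 13.3 and 12.0 CPM with USP12. The fibroblast list summed to 16.1 and 2.71 CPM in controls and to 19.99 and 15.8 CPM with USP12, with DCN at 0. Most of it was COL1A1, at 13.0 and 2.60 CPM in controls and 18.8 and 14.6 CPM with USP12. COL1A1 is also among the TGF-beta targets listed below. The part of these differences in the results was not tested, and in bulk RNA fewer cells of a kind and less RNA per cell cannot be told apart.

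PMEPA1, LTBP2, ID2, TGFBI and SMAD7 were between 2.40-fold and 8.49-fold higher in USP12 cells than in control cells, and SMAD3 was 1.40-fold higher. SMAD6, SKIL, ID1 and ID3 had overlapping groups. Both USP12 libraries lay above both control libraries for 6 of 10 members, against 19.6% of all tested genes, and below them for 0 of 10, against 16.9%. Against control replicate 2 alone, both USP12 libraries were higher for 9 of 10 members, against 41.7% of all genes, and lower for 1, SKIL, against 40.1%. Against control replicate 1 alone they were higher for 6 and lower for 3, against 45.6% and 42.3%. No member had an adjusted p under 0.05 (0 of 10, edgeR's quasi-likelihood test), nor had any gene (0%). At an unadjusted p under 0.05 there were 5 of 10 members, against 7.59% of all genes. The edgeR exact test called 2 members, PMEPA1 and LTBP2, at an adjusted p under 0.05, against 2.82% of all genes, and DESeq2 called the same 2, against 2.67%. At an unadjusted p of at most 0.05 with a log2 fold change of at least 1 there were 5 members, PMEPA1, SMAD7, TGFBI, LTBP2 and ID2, against 2.92% of all genes. A fit blocked on replicate number, and one that dropped the low-count filter, each called 3 members, PMEPA1, TGFBI and LTBP2, against 2.65% and 2.13%. Without control replicate 2 there were 6 members called against 32.2% of all genes, and without control replicate 1 there were 6 against 10.5%. Without USP12 replicate 1 or replicate 2 there were 0, against 0.248% and 0.273%. These shares repeat the contrast by which the members were chosen.

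**Figure D1:**
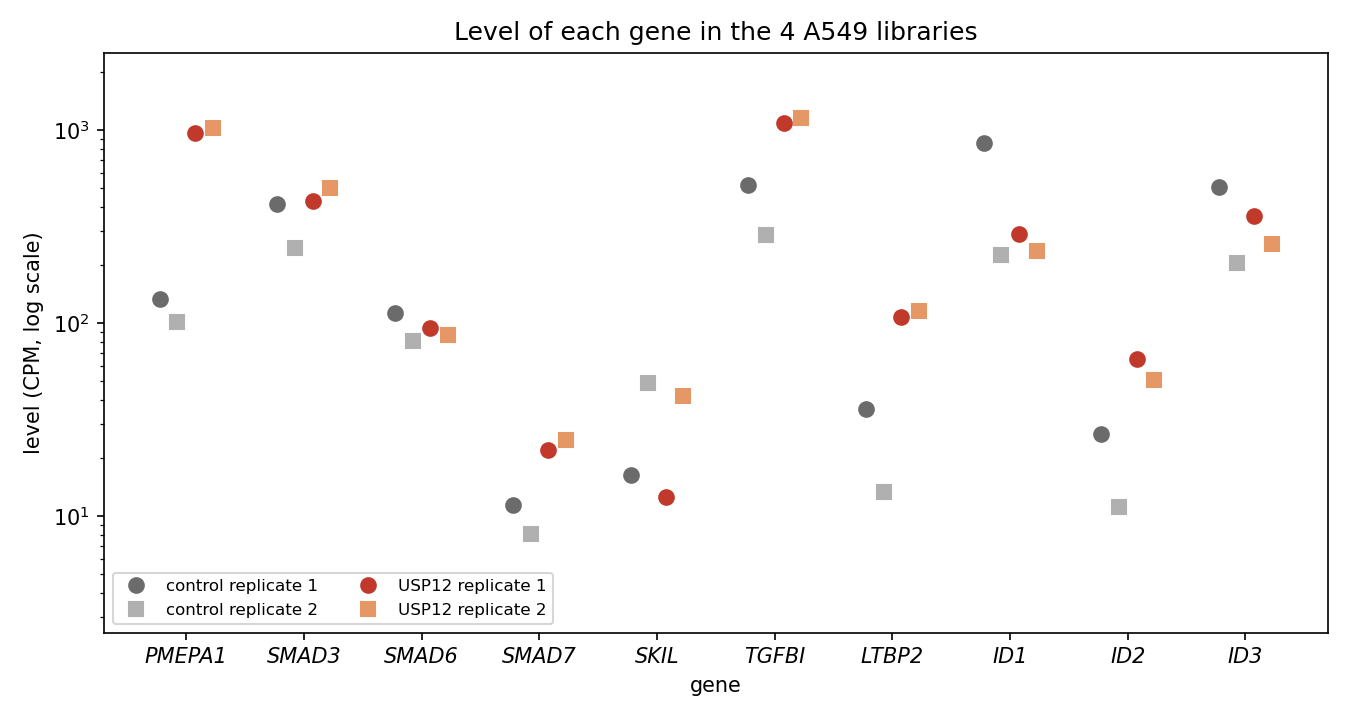
Level of each gene in CPM, on a log axis, in the 2 control libraries (grey) and the 2 USP12 libraries (red and orange). For PMEPA1 the USP12 libraries stand at 965 and 1021 CPM against 133 and 101 CPM, while for SKIL the replicates of each group differ more than the groups do.

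PMEPA1 (ENSG00000124225, chromosome 20, 57648392 to 57711536 on the minus strand, GRCh38) encodes a membrane protein that binds SMAD2 and SMAD3 and keeps them from the receptor. It had 133 and 101 CPM in controls, against 965 and 1021 CPM with USP12. The groups were far apart and the replicates of each close together. The log2 fold change was 3.09 (standard error 0.35), with 3.29 against control replicate 2 alone and 2.93 against control replicate 1 alone.

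The main start of PMEPA1 lies head to head with that of NKILA, a long noncoding RNA known to bind the complex of NF-kB with its inhibitor and to hold NF-kB inactive. NKILA (ENSG00000278709, chromosome 20, 57710156 to 57712780 on the plus strand) begins 141 bases from the PMEPA1 start at 57710015. The 250 bases before the PMEPA1 start, on the minus strand at chr20:57710016-57710265 (GRCh38.p14, RefSeq), are shown because NKILA begins within them. The 110 bases inside the annotated NKILA exon are in capitals.
PMEPA1: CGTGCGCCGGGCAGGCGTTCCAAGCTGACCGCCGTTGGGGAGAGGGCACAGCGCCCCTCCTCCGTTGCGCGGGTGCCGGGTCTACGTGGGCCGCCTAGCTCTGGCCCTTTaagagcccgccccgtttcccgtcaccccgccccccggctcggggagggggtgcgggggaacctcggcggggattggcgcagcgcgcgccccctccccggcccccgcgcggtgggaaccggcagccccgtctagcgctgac
NKILA had 23 and 6 counts in controls, against 157 and 139 counts with USP12, which did not overlap. Its log2 fold change was 3.36 (standard error 0.86), and the adjusted p of the edgeR quasi-likelihood fit was 0.331. Against control replicate 2 alone it was 4.94 and against control replicate 1 alone it was 2.61. The genes share 343 exonic bases, 13.1% of the NKILA exons and 5.98% of those of PMEPA1. These bases lie before the main PMEPA1 start, in PMEPA1 transcripts with other annotated starts. The kit keeps strand, but no source says whether the counting used it, so fragments of PMEPA1 counted on NKILA cannot be told apart from NKILA itself. For every 100 counts on PMEPA1 there were 1.31 and 0.328 counts on NKILA in controls and 1.17 and 0.942 with USP12. NKILA is not among the 10 genes and was named after its values were seen.

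TGFBI (ENSG00000120708, chromosome 5, 136028988 to 136063818, plus strand) encodes a secreted matrix protein named for its induction by TGF-beta. Its level was 518 and 285 CPM in controls, against 1086 and 1146 CPM with USP12. The USP12 libraries agreed closely and both were above the higher control. The log2 fold change was 1.47 (standard error 0.39), and 1.97 against control replicate 2 alone.

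LTBP2 (ENSG00000119681, chromosome 14, 74498183 to 74612378, minus strand) is a relative of the latent TGF-beta binding proteins that takes part in elastic fibres. It had 36.0 and 13.3 CPM in controls and 108 and 116 CPM with USP12. The groups did not overlap, although the controls differed by 1.43 on the log2 scale. The log2 fold change was 2.18 (standard error 0.55), and from 1.66 without control replicate 2 to 3.07 without control replicate 1. A gene without a name on the other strand shares 2.28% of its exonic bases and had 0 counts in all libraries.

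SMAD3 (ENSG00000166949, chromosome 15, 67063763 to 67195173, plus strand), the only signal-carrying SMAD among the 10, had 415 and 245 CPM in controls, against 429 and 499 CPM with USP12. The groups lay side by side, with control replicate 1 just below the lower USP12 library. A gene without a name on the other strand shares 1.82% of its exonic bases and had 0 counts throughout. SMAD3 had a log2 fold change of 0.49 (standard error 0.38), 0.92 against control replicate 2 alone and 0.19 against control replicate 1 alone.

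Of the inhibitory SMADs, SMAD7 (ENSG00000101665, chromosome 18, 48919853 to 48950965, minus strand), which blocks TGF-beta and BMP receptors and brings ubiquitin ligases to them, had 11.4 and 8.13 CPM in controls, against 22.1 and 24.8 CPM with USP12. Its groups did not overlap, with a log2 fold change of 1.26 (standard error 0.45). SMAD6 (ENSG00000137834, chromosome 15, 66702236 to 66782849, plus strand), which mainly blocks BMP signals, had 113 and 81.2 CPM in controls and 94.1 and 86.3 CPM with USP12. Both USP12 values lay between the control values, and the log2 fold change was -0.11 (standard error 0.37), turning to 0.15 against control replicate 2 alone.

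The windows before the main starts of SMAD7, TGFBI and SMAD6 are shown to set genes with higher levels in USP12 cells beside a gene whose level was nearly equal, each 250 bases on the gene's own strand and taken from RefSeq on GRCh38.p14. SMAD7 lies at chr18:48950966-48951215, TGFBI at chr5:136028738-136028987 and SMAD6 at chr15:66701986-66702235. Capitals mark CAGAC, a core of the SMAD binding element, the palindrome GTCTAGAC, which holds the SMAD box AGAC on both strands, and GGCGCC, a GC-rich core known from BMP response elements, each searched on both strands. The motifs can overlap each other only at their ends.
SMAD7: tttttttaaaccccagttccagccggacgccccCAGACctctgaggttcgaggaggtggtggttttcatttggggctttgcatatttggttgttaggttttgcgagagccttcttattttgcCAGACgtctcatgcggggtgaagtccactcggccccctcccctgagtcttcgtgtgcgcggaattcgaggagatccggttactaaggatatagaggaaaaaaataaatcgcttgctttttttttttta
TGFBI: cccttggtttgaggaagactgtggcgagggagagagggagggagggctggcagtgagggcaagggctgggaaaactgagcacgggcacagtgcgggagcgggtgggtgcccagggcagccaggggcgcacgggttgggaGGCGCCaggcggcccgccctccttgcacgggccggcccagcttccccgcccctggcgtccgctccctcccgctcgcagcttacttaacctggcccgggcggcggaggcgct
SMAD6: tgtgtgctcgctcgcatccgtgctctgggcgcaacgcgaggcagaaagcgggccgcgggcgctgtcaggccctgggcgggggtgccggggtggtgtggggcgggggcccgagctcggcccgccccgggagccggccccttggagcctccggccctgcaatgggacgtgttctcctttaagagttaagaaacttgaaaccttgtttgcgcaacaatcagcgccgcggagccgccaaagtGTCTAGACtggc
The palindrome was found in the window of 1 member, SMAD6, from 12 to 5 bases before its start, and in 0.182% of 35116 windows of all genes. These windows of all genes include those at other annotated starts, whereas those of the members are at main starts only. CAGAC was found in 3 of 10 member windows, those of SMAD7, SKIL and ID3, against 38% of all windows. GGCGCC was found in 4 of 10, those of SMAD3, SKIL, TGFBI and LTBP2, against 16.4%. The window of PMEPA1 above held none of the motifs, while windows at other annotated starts of PMEPA1 held CAGAC or GGCGCC. Windows at other annotated starts of SMAD3 and SMAD7 held CAGAC.

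SKIL (ENSG00000136603, chromosome 3, 170357342 to 170396835, plus strand) encodes SnoN, a repressor that binds SMADs on DNA. It had 16.3 CPM in control replicate 1 and 48.7 CPM in control replicate 2, and 12.5 and 41.8 CPM in USP12 replicates 1 and 2. The libraries numbered 2 were high and those numbered 1 low in each group, so the groups overlapped. The log2 fold change was -0.26 (standard error 0.76), against a log2 difference of -1.57 between the controls and -1.73 between the USP12 libraries. Against control replicate 2 alone it was -0.84 and against control replicate 1 alone it was 0.76.

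The ID genes encode helix-loop-helix proteins without a DNA-binding part, which pair with E proteins and keep them off DNA. ID1 (ENSG00000125968, chromosome 20, 31605283 to 31606515, plus strand) had 858 and 225 CPM in controls, against 289 and 237 CPM with USP12. Control replicate 1 stood alone above the other 3. The log2 fold change was -1.04 (standard error 0.63), -1.67 against control replicate 1 alone and 0.23 against control replicate 2 alone. ID3 (ENSG00000117318, chromosome 1, 23557926 to 23559501, minus strand) had 504 and 204 CPM in controls and 358 and 255 CPM with USP12. Both USP12 values lay between the controls, and the log2 fold change of -0.21 (standard error 0.50) became 0.59 against control replicate 2 alone. ID2 (ENSG00000115738, chromosome 2, 8678845 to 8684461, plus strand) had 26.7 and 11.2 CPM in controls and 65.2 and 50.6 CPM with USP12. Unlike ID1 and ID3, its groups did not overlap, and its log2 fold change was 1.61 (standard error 0.54), or 2.37 against control replicate 2 alone. ID2-AS1 on the other strand covers 6.55% of the ID2 exons and had between 9 and 44 counts.

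**Figure D2:**
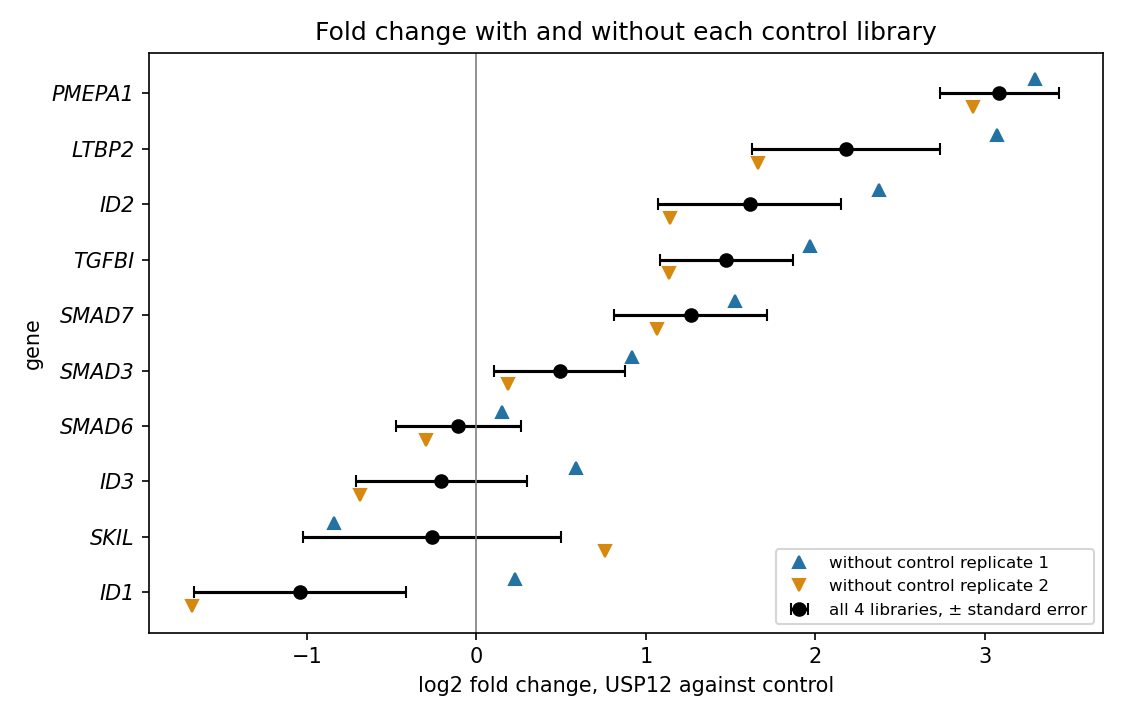
Log2 fold change of each gene, USP12 against control, from all 4 libraries (black points, bars of ± 1 standard error) and with either control library left out (triangles). PMEPA1 stays between 2.93 and 3.29, whereas the points of SMAD6, ID3, SKIL and ID1 fall on both sides of 0.

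Ratios of raw counts within a library do not depend on scaling, and 5 pairs were compared, chosen after the values were seen. PMEPA1 had 0.320 and 0.413 counts for each count of SMAD3 in controls, against 2.25 and 2.04 with USP12. SMAD7 had 0.101 and 0.100 counts for each count of SMAD6 in controls, and 0.235 and 0.287 with USP12. The controls, which differed in the level of most members, were nearly equal in this ratio. ID2 had 0.0312 and 0.0496 counts for each count of ID1 in controls, and 0.225 and 0.213 with USP12. For ID3 the ratio to ID1 was 0.587 and 0.904 in controls, and 1.24 and 1.08 with USP12. LTBP2 had 0.0696 and 0.0467 counts for each count of TGFBI in controls, and 0.0991 and 0.101 with USP12. Each pair set the gene with the larger log2 fold change over the other, so a higher ratio with USP12 follows from the choice of pairs. In all 5 pairs both USP12 libraries were above both controls, with ID3 to ID1 the closest.

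**Figure D3:**
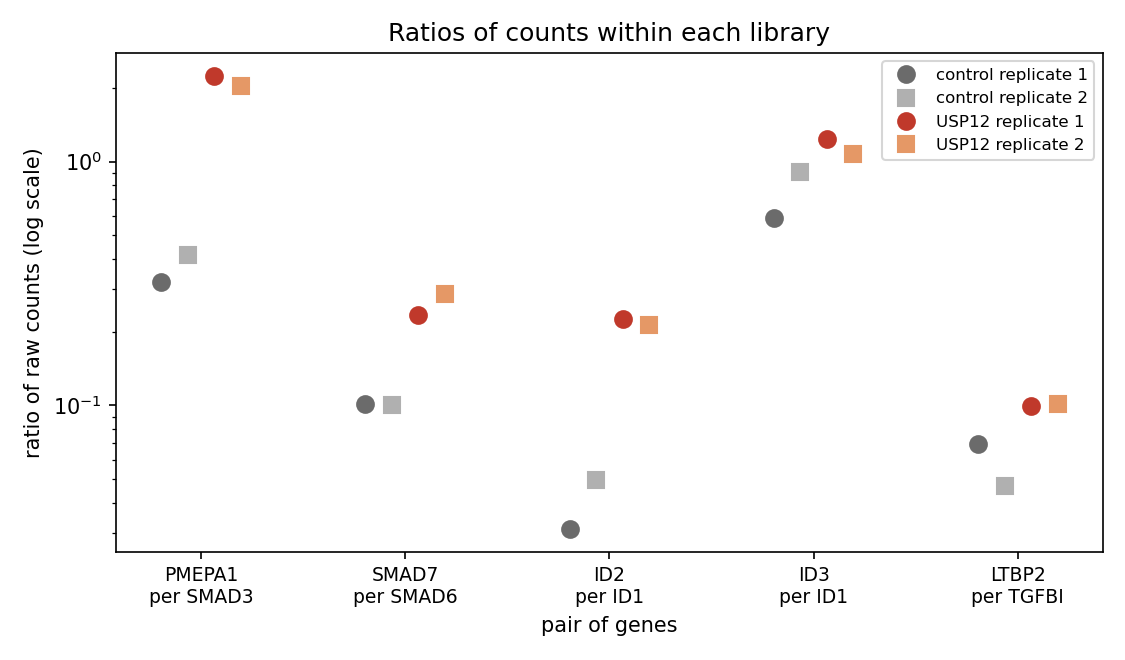
Ratio of raw counts of 5 pairs of genes in each of the 4 libraries, on a log axis. The ratio of PMEPA1 to SMAD3 goes from 0.320 and 0.413 in controls to 2.25 and 2.04 with USP12, and that of ID2 to ID1 from 0.0312 and 0.0496 to 0.225 and 0.213.

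Per kilobase of exon, by the GENCODE 44 annotation, ID1 had the highest mean level in control cells at 439 CPM per kilobase, ahead of ID3 at 236, TGFBI at 52.0, SMAD3 at 33.0 and PMEPA1 at 20.4. SMAD6 at 11.3, ID2 at 8.57, SKIL at 4.004, LTBP2 at 2.72 and SMAD7 at 2.48 CPM per kilobase followed. Of neighbours in that order, ID3 and TGFBI, SMAD3 and PMEPA1, and PMEPA1 and SMAD6 had control libraries that did not overlap. In USP12 cells PMEPA1 had 173 CPM per kilobase, next after ID1 at 214 and ID3 at 205 and before TGFBI at 145. The libraries of ID1 and ID3, and of ID3 and PMEPA1, overlapped there, and those of the other neighbours did not. SMAD3 then stood at 46.4, ID2 at 26.2, LTBP2 at 12.3, SMAD6 at 10.5, SMAD7 at 5.94 and SKIL at 3.34 CPM per kilobase.

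The genes nearest to PMEPA1 in their profile over the 4 libraries, by Euclidean distance of centred log2 CPM among 15221 genes, were HNRNPA1P16 (0.20), NLGN1 (0.20), LINC01508 (0.30), UNC5C (0.31) and CHRNA9 (0.36). They had between 0 and 8 counts in the control libraries and between 11 and 64 with USP12, and HNRNPA1P16 is a pseudogene, so its counts are uncertain. Among 7644 genes with at least 10 CPM in every library, a limit set after these were seen, the nearest were TSPAN14 (0.64), CDK2AP1 (0.85), CD24 (0.90), DCDC2 (0.92) and GLP2R (1.04). TSPAN14, a tetraspanin that escorts the protease ADAM10, had 57.7 and 46.4 CPM in controls and 293 and 281 CPM with USP12. CD24, a cell-surface glycoprotein, had 57.3 and 78.6 CPM in controls and 380 and 350 CPM with USP12.

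The other genes of the pathway were taken from 9 lists chosen with earlier results of these data known, so their counts are a description. In them 0 genes passed an adjusted p under 0.05 in either direction (edgeR's quasi-likelihood test), as for all genes. Counts of genes with groups apart are set beside 19.6% higher and 16.9% lower over all genes, and medians beside -0.06, which became 0.02 against control replicate 2 alone and 0.09 against control replicate 1 alone. Of 20 other TGF-beta and SMAD3 targets tested, 12 had both USP12 libraries above both controls and 2 below, with a median log2 fold change of 0.41. Without control replicate 1 that median was 1.302. Both USP12 libraries were above control replicate 1 alone for 12 of these 20 and below it for 7, against 45.6% and 42.3% of all genes. For control replicate 2 alone these were 17 and 3, against 41.7% and 40.1%. ADAM19, a membrane protease, had 8.84 and 2.43 CPM in controls and 39.8 and 50.9 CPM with USP12 (log2 fold change 3.01, standard error 0.71, or 4.22 against control replicate 2 alone and 2.39 against control replicate 1 alone). ITGB6, a subunit of an integrin that activates latent TGF-beta, had 1 and 12 counts in controls and 40 and 46 with USP12. VEGFA, a growth factor for blood vessels, was at 43.1 and 76.5 CPM in controls and 27.0 and 41.2 CPM with USP12. CCN2, a matrix protein, was at 37.5 and 35.9 CPM in controls and 27.4 and 30.9 CPM with USP12.

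Of 9 other BMP targets tested, 0 were above both controls and 3 below, with a median of -0.51. That median was -0.95 without control replicate 2 and turned to 0.23 without control replicate 1. ID4, the remaining ID gene, had 11.5 and 4.76 CPM in controls and 3.09 and 3.18 CPM with USP12. DLX2, a homeobox factor, had 12 and 55 counts in controls and 4 and 9 with USP12. MSX2, also a homeobox factor, was the remaining gene below both controls, named after its values were seen, at 20.7 and 11.8 CPM in controls and 7.84 and 7.89 CPM with USP12.

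**Figure D4:**
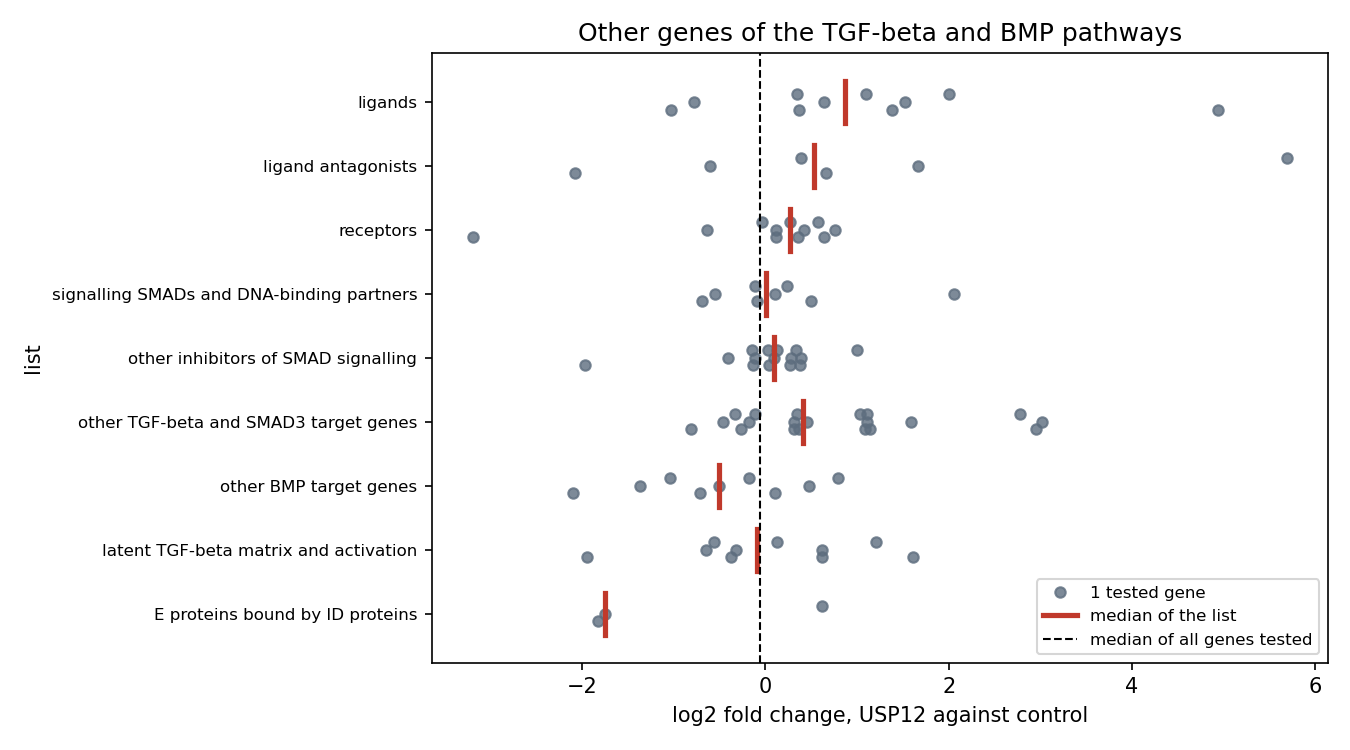
Log2 fold change, USP12 against control, of each tested gene in 9 lists of the TGF-beta and BMP pathways (points), with the median of each list (red bars) and of all tested genes (dashed line, -0.06). The other TGF-beta and SMAD3 targets have a median of 0.41 and the other BMP targets of -0.51, and single genes of both lists lie on either side of 0.

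Of 10 ligands tested, 6 were above both controls and 2 below, with a median of 0.87. BMP2 had 1 and 14 counts in controls and 182 and 212 with USP12, and TGFB2 had 24.5 and 22.1 CPM in controls and 90.4 and 96.6 CPM with USP12. GDF15, a stress-induced member of the family, had 650 and 276 CPM in controls and 271 and 269 CPM with USP12, and INHBE, which encodes an activin subunit, had 22 and 74 counts in controls and 21 and 19 with USP12. Of 6 ligand antagonists tested, 3 were above both controls and 0 below, with a median of 0.52. GREM1, which binds and blocks BMP2 and BMP4, had 7 and 26 counts in controls and 618 and 868 with USP12. FST, which binds activin, had 8 and 57 counts in controls and 93 and 78 with USP12.

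Of 11 receptors tested, 2 were above both controls and 2 below, with a median of 0.27 that turned to -0.12 without control replicate 1 and was 0.95 without control replicate 2. ACVR1, a type I receptor for BMPs, had 9.14 and 17.5 CPM in controls and 21.6 and 23.5 CPM with USP12. ACVR1B, a type I receptor for activin, had 52.3 and 63.7 CPM in controls and 96.4 and 84.7 CPM with USP12. ACVRL1, a receptor best known from endothelium, had 38 and 67 counts in controls and 4 and 6 with USP12. Of the endothelial markers above, CDH5 and PECAM1 were lower with USP12, while VWF, KDR and CLDN5 were at or below 3 counts throughout. A link between these genes and ACVRL1 was not tested. TGFBR3, a co-receptor, had 25.4 and 24.4 CPM in controls and 15.8 and 16.3 CPM with USP12.

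Of 8 signalling SMADs and DNA-binding partners tested, 1 was above both controls and 1 below. The median of 0.01 lay between -0.46 against control replicate 2 alone and 0.78 against control replicate 1 alone. The genes with groups apart were the zinc finger repressors ZEB2, with 30 and 10 counts in controls and 65 and 101 with USP12, and ZEB1, with 129 and 321 in controls and 105 and 137 with USP12. Of 15 other inhibitors tested, 4 were above both controls and 0 below, with a median of 0.09. That median was 0.24 against control replicate 2 alone and 0.34 against control replicate 1 alone. TGIF2, a SMAD corepressor, had 6.35 and 17.2 CPM in controls and 22.8 and 24.3 CPM with USP12, and NEDD4L, a ubiquitin ligase, 43.4 and 58.9 CPM in controls and 67.4 and 66.6 CPM with USP12.

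Of 10 genes of the latent TGF-beta matrix and its activation, 2 were above both controls and 2 below, with a median of -0.10 that turned to 0.73 without control replicate 1 and was -0.37 without control replicate 2. ITGB3, an integrin subunit, had 51 and 2 counts in controls and 59 and 111 with USP12, and MMP14, a membrane protease, had 31 and 36 counts in controls and 74 and 68 with USP12. ITGB8, a subunit of an integrin that activates TGF-beta, had 78 and 23 counts in controls and 13 and 13 with USP12. FBN1, the fibrillin that anchors latent TGF-beta, had 12.5 and 13.8 CPM in controls and 7.62 and 9.20 CPM with USP12. The 3 E proteins that ID proteins bind had groups that were all apart. TCF12 had 115 and 73.3 CPM in controls and 22.6 and 33.2 CPM with USP12 (log2 fold change -1.75, standard error 0.44). TCF4 had 7.78 and 23.5 CPM in controls and 4.24 and 4.57 CPM with USP12, while TCF3 had 45.0 and 34.1 CPM in controls and 63.1 and 58.1 CPM with USP12.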

How the data were processed

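Per the labels and methods, the authors prepared mRNA with a kit that keeps strand, cleaned the reads of adaptors and rRNA with Seqtk, mapped reads to GRCh38 with HISAT2 2.0.4 and counted uniquely mapped fragments per gene with StringTie 1.3.0. The deposited values are raw counts for 50868 genes. The annotation release and strand setting of the counting are not given in the sources used here.

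Counts were compared in R 4.3.3 with edgeR 4.0.16 (filterByExpr, TMM scaling, quasi-likelihood test, Benjamini-Hochberg adjustment over 15222 genes), run beforehand on simulated data. The simulated replicates varied equally in both groups, unlike these libraries, so that run does not show how the test performs here. Each standard error is approximate, taken as log2 fold change over the root of F. A prior count of 2 went into log2 CPM. With 2 libraries in each group an exact permutation test of a gene cannot go below p = 0.333. By a chi-square of their counts, both pairs of replicates differed by more than sampling noise. The floor of 3 counts covers counting error only, while standard errors include the spread between replicates.

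The groups are those of the sample titles. Members and lists were chosen with earlier results of these data known. Named from each list were genes with an adjusted p under 0.05 and the 2 largest log2 fold changes in each direction among genes whose groups did not overlap, and the 5 genes nearest to PMEPA1. Exon lengths and positions came from GENCODE release 44 and promoter windows from RefSeq, in which all 10 genes matched. Alternatives were DESeq2 1.42.0 size factors and Wald test, other filters, the edgeR exact test, the replicate number as a block and leaving out each library. Comparisons of lists, NKILA and list genes with 1 control alone were added after seeing the data. No sample, file or count column was left out.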

Additional observations from a re-analysis of the deposited data

How the results depend on the processing

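How many genes reached an adjusted p under 0.05 depended on the setting. The quasi-likelihood test found 0 lower and 0 higher (1155 genes at unadjusted p under 0.05), as it did after scaling by DESeq2 size factors or keeping genes with at least 10 counts in every library. Dropping the filter gave 361 lower and 167 higher genes, the Wald test of DESeq2 273 and 133, the exact test of edgeR 262 and 167, and the replicate block 251 and 153. Without the filter, with the block and without either USP12 library the prior degrees of freedom were infinite, against 4.15, so the spread of the single gene did not enter those calls. The replicate numbers do not pair the libraries by any label, and libraries with the same number deviated from their group means with a correlation of 0.152 across genes. With the block PMEPA1, TGFBI and LTBP2 were called (3 of 10, against 2.65% of all genes), as they were without a filter (2.13%). Leaving out a library gave from 28 to 2612 lower and from 12 to 2550 higher genes, the most without control replicate 2 (2612 and 2550) and then without control replicate 1 (913 and 752). There the lone control is assumed to vary like the USP12 libraries. Of the members, 6 of 10 were called without either control (32.2% of all genes without control replicate 2, 10.5% without control replicate 1), and 0 without USP12 replicate 1 or 2, where 40 and 44 genes were called.

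The fold changes of all 10 members moved by less than the spread between replicates in the 6 alternatives that kept every library. With a library left out their log2 fold changes ranged as follows: PMEPA1 from 2.93 to 3.29, SMAD3 from 0.19 to 0.92, SMAD6 from -0.30 to 0.15, SMAD7 from 1.07 to 1.53, SKIL from -1.39 to 0.76, TGFBI from 1.14 to 1.97, LTBP2 from 1.66 to 3.07, ID1 from -1.67 to 0.23, ID2 from 1.14 to 2.37, ID3 from -0.69 to 0.59. The direction of SMAD6, SKIL, ID1 and ID3 was therefore not the same in every fit. The median of the ligands was 0.50 with at least 10 counts in every library, and that of the other TGF-beta and SMAD3 target genes was 0.47 without a filter and 0.50 with the replicate block. The median of the latent TGF-beta matrix genes, -0.10, turned to 0.16 without a filter and to 0.04 with the block, and that of the signalling SMADs, 0.01, to -0.01 with DESeq2 size factors and with its Wald test. With a library left out the list medians ranged as follows: E proteins bound by ID proteins from -1.90 to -0.79, latent TGF-beta matrix and activation from -0.37 to 0.73, ligand antagonists from 0.11 to 0.62, ligands from 0.76 to 0.97, other BMP target genes from -0.95 to 0.23, other inhibitors of SMAD signalling from 0.15 to 0.34, other TGF-beta and SMAD3 target genes from 0.43 to 1.302, receptors from -0.12 to 0.95, signalling SMADs and DNA-binding partners from -0.46 to 0.78. The filters also changed which genes entered a list. BMP2 and TGFB3, with 1 and 0 counts in control replicate 1, were not among the ligands kept at 10 counts in every library. Without a filter SNAI2 joined the other TGF-beta and SMAD3 targets, and NRROS joined the latent TGF-beta matrix genes. Those medians are therefore of different sets of genes, and the cause of the other changes was not tested. At these depths a gene below 3 counts could not be told from 0.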

Other observations

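Genes within 250 kb of the members were compared with them as values from the fit of all 4 libraries. Around PMEPA1 the tested neighbours were NKILA, at a log2 fold change of 3.36, and RBM38, at -0.91. Around TGFBI they were FBXL21P at 0.96 and SMAD5, a BMP signal carrier, at -0.11. Around LTBP2 there were 6, from -0.18 to 1.05 with a median of 0.39, against 2.18 for LTBP2 itself. Of these, 4 had both USP12 libraries above both controls, against 19.6% of all tested genes. That held for 3 of 6 around ID1, 2 of 3 around ID2, 3 of 12 around ID3 and 1 of 4 around SMAD6. It also held for 1 of 2 around each of PMEPA1, SMAD7 and TGFBI, and for 1 of 3 around SMAD3 and around SKIL. Both USP12 libraries were below both controls for 1 neighbour each of PMEPA1, SKIL, ID1 and ID3. The other members had 0 such neighbours, against 16.9% of all tested genes. The highest around SKIL was CLDN11 at 4.60, named after its value was seen, with 0 and 2 counts in controls. Around ID1 there were 6, from -0.95 to 5.04, the highest being FOXS1, a forkhead factor chosen for naming after its value was seen. SMAD3 and SMAD6 lie close together on chromosome 15, with log2 fold changes of 0.49 and -0.11.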
